A study of Rattus norvegicus with 6 samples.

Results

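The tumour necrosis factor (TNF) superfamily was followed in rat aortic rings over their first day in collagen gel. Members were the genes whose single array symbol was Tnf, Lta, Ltb, Ltbr, Fas, Faslg, Cd27, Cd40, Cd40lg, Cd70 or Ngfr, or began with Tnfsf or Tnfrsf and a number, with the brightest row standing for a gene. This gave 32 members among the 14324 genes measured, namely 13 ligands and 19 receptors, each with 1 row on the array. The membership rule reads gene symbols and array levels.

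One group held 3 day 1 cultures, which are rings of aorta embedded in collagen gel and kept in serum-free EBM medium. They were compared with 3 samples of freshly harvested rings, called day 0. All came from male Fisher 344 rats aged 1 to 2 months, and no agent or mutant allele is named for either group. Each sample combined 4 to 6 rings or cultures and was hybridised to its own whole-transcript array, so a sample is a pool of whole vessel wall. Labels call the samples biological replicates. They do not say if animals were shared between pools, so each p-value reflects how far pools of a day differed, which may be technical.

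TNF superfamily ligands are mostly trimeric membrane proteins, many of which can be cut free from the cell surface. Their receptors pass signals in 2 main ways. Receptors with a cytoplasmic death domain can assemble complexes that activate caspases, and most receptors recruit TRAF adaptors that lead to NF-kappaB and MAP kinases. In the vessel wall, TNF is known for switching endothelial and smooth muscle cells to an inflammatory state, and TRAIL, osteoprotegerin and TWEAK are family members that vascular cells make.

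The start regions of the most changed receptors are shown so that the upstream sequence of receptors with large rises and falls can be read. The sequences are the 250 bases before the annotated start, from RefSeq on assembly GRCr8, printed 5′ to 3′ on the gene's strand. An entry was matched for 23 of the 32 members. Of the members that changed, the regions printed are those of the 2 largest rises and 2 largest falls whose window lay outside the annotated gene. The window of Tnfsf10, which had the largest fall of all members, did not lie outside its annotated gene and is not printed. The same held for Ltbr, Tnfsf13b and Tnfsf15. Capitals mark the AP-1 motif TGANTCA in Fas, the only match to the 3 motifs searched in these 4 regions.
Tnfrsf26, chr1:208252431-208252680, minus strand: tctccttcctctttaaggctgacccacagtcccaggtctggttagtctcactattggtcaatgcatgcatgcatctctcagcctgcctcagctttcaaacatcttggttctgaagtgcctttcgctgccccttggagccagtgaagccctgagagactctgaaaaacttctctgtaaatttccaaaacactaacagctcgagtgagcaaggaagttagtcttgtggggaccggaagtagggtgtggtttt
Tnfrsf1a, chr4:159836869-159837118, plus strand: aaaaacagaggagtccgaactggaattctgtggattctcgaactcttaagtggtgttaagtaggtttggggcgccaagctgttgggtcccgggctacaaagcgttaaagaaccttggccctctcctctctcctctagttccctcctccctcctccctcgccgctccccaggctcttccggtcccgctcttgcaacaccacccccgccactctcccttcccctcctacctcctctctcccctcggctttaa
Fas, chr1:241211905-241212154, plus strand: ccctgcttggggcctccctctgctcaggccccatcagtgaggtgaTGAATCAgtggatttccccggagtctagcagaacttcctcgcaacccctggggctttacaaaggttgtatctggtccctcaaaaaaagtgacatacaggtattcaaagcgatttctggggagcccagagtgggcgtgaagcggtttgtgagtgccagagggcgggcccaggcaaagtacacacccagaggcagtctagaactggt
Tnfrsf19, chr15:39334567-39334816, minus strand: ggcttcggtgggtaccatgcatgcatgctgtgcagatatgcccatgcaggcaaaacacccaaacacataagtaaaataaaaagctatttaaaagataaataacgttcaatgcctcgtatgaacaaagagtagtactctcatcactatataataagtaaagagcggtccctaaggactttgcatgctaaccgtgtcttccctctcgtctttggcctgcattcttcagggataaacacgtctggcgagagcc

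Motifs were searched on both strands in the same 250 bases of every entry. This search kept windows that did not lie outside the annotated gene, such as that of Tnfsf13b. The NF-kappaB consensus was found in 3 of the 23 members and in 3.54% of the 33469 start regions in the table. These members were Lta, with GGGGCTTCCC at 93 to 84 bases before the start, Ltb and Tnfrsf8. The interferon response core, GAAA followed by any 2 bases and GAAA again, was found in 3 members, Tnfsf13b, Tnfrsf1b and Tnfrsf17, and in 3.41% of regions. TGANTCA, the AP-1 motif, was found in 3 members, Fas, Tnfrsf1b and Tnfrsf8, and in 6.34% of regions. No 2 matches overlapped. A match describes letters in the window only, and neither a match nor its absence says anything about binding of these factors. Whether a motif bears on the change of a gene was not tested.

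On day 1 the family had moved in both directions. The receptor genes Tnfrsf26, Tnfrsf1a, Tnfrsf21, Ltbr and Tnfrsf10b rose, by 0.69 to 1.51 on the log2 scale, and the ligand genes Tnf, Tnfsf13 and Tnfsf15 rose by 0.39 to 0.63. The TRAIL gene Tnfsf10 and the receptor genes Tnfrsf19, Fas, Tnfrsf11b and Tnfrsf9 fell, with changes of -2.09 to -0.49, and the genes Ltb, Tnfsf13b and Tnfrsf18 fell, with changes of -0.33 to -0.24. By limma with Benjamini-Hochberg adjustment over all genes, 16 of 32 members passed an adjusted p of 0.05. The background was 48.3% of all genes, so the share that changed was near that of the array as a whole. Of the members 8 rose, beside 27.6% of all genes, and 8 fell, beside 20.7%. The median change of the members was -0.06 on the log2 scale, and that of all genes was -0.01. At least 2-fold changes were reached by 3 of the members that rose, beside 4.13% of all genes, and by 2 of those that fell, beside 4.11%. Arrays of the day 1 and day 0 groups did not overlap in 18 members, beside 56.9% of all genes. Day 1 was the higher in 10 of these, beside 31.4% of all genes, and the lower in 8, beside 25.5%. The wall is a mixture of cells, and in such samples fewer cells of a type and less RNA per cell cannot be told apart. The label of aorta fitted the 7 contractile smooth muscle markers, whose mean log2 level was 8.21 to 8.35 across day 1 arrays and 11.61 to 11.70 across day 0 arrays.

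**Figure D1:**
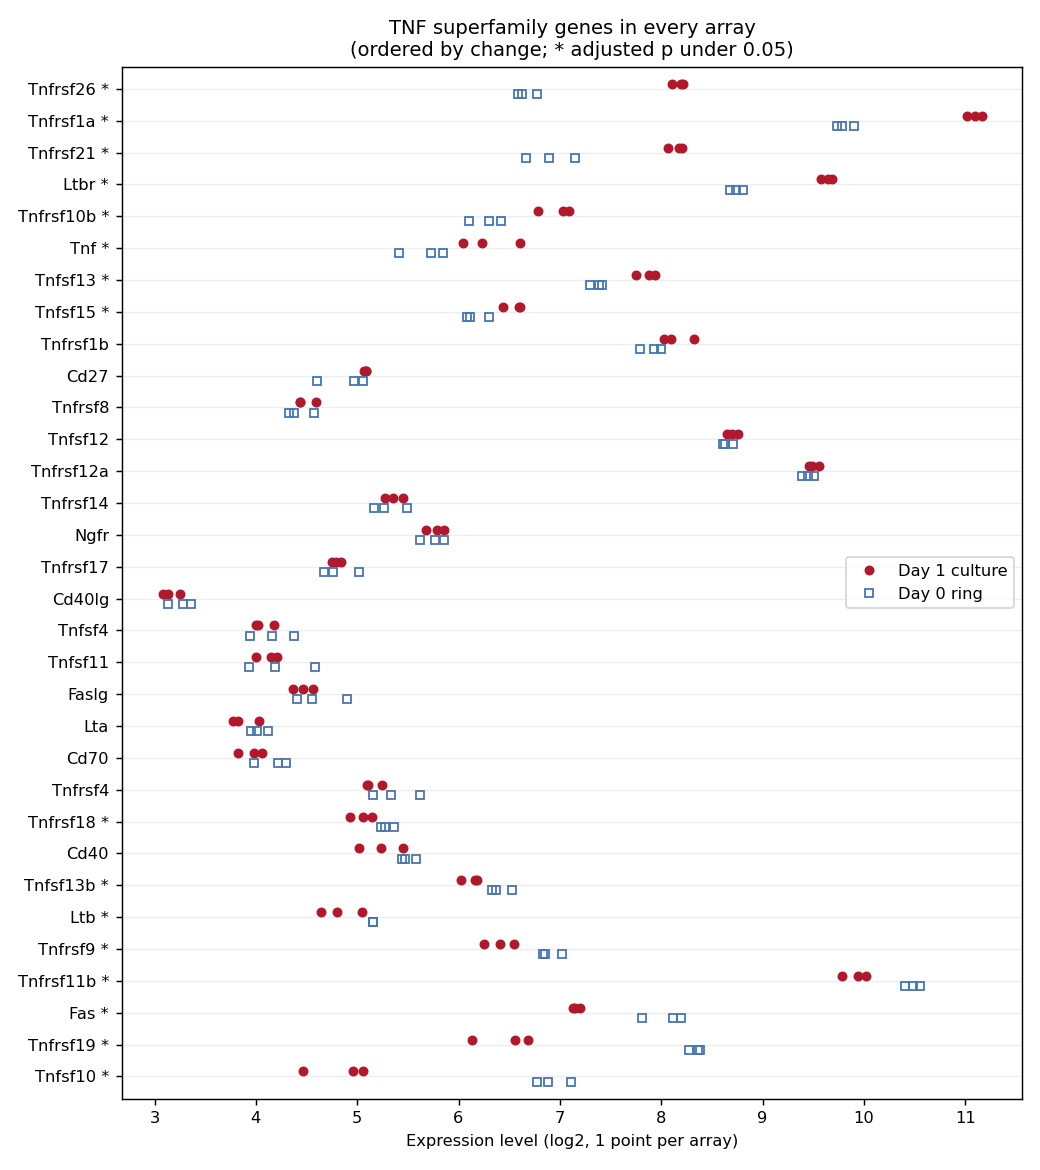
Level of each superfamily gene in every array (log2 scale, horizontal axis), with day 1 cultures as filled red circles and day 0 rings as open blue squares, 3 arrays per group; genes run from the largest rise at the top to the largest fall at the bottom, and levels of different genes are not comparable. Tnfrsf26 on day 1 lies at 8.11 to 8.21 and above all day 0 arrays, and Tnfsf10 on day 1 lies at 4.47 to 5.06 and below all of them.

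How bright a member was on the array went with how often it passed the test. Of 21 members whose mean lay under the median of all genes 8 passed, beside 29.3% of all genes at such levels. Of the 11 brighter members 8 passed, beside 67.3% of all genes at such levels. Among ligands 11 of 13 lay under the median and 6 lay in the dimmest 25% of genes. Among receptors 10 of 19 lay under the median and 2 in the dimmest 25%. On an array, dim rows can understate fold changes. The plot of levels by array shows the dim ligands, such as Cd40lg, Lta and Tnfsf4, with their day 1 and day 0 points mixed.

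Among ligands, 3 of 13 rose, 3 fell and 7 did not pass the threshold, with a median change of -0.11. The shares of 23.1% in each direction were near the 27.6% and 20.7% of all genes that rose and fell. Tnf, the founding inflammatory cytokine of the family, had levels of 6.23, 6.04 and 6.61 in day 1 cultures, against 5.73, 5.41 and 5.85 in day 0 rings. All day 1 arrays lay above all day 0 arrays, and Tnf was 1.55-fold higher on day 1 (log2 change 0.63 ± 0.16, SE, n = 3 per group, limma adjusted p = 0.0133). Day 1 replicate 3 was the highest of the day 1 arrays. Tnfsf13, which encodes the B cell and plasma cell survival factor APRIL, stood at 7.94, 7.88 and 7.75 on day 1, against 7.42, 7.39 and 7.30 on day 0. The groups did not overlap, and the log2 change was 0.49 ± 0.07 (limma adjusted p = 7.34e-04). Tnfsf15 encodes TL1A, a ligand that endothelial cells make and that restrains their growth. It stood at 6.60, 6.61 and 6.44 in day 1 cultures, against 6.11, 6.30 and 6.08 in day 0 rings, a change of 0.39 ± 0.08 (limma adjusted p = 0.00573) without overlap.

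The largest fall in the family was that of Tnfsf10, which encodes TRAIL, a ligand able to trigger apoptosis through death receptors. Its levels were 4.47, 5.06 and 4.96 in day 1 cultures, against 7.11, 6.88 and 6.77 in day 0 rings. Every day 1 array lay well below every day 0 array. The mean was 4.83 ± 0.32 on day 1 and 6.92 ± 0.17 on day 0 (SD, n = 3 each), which is 4.26-fold lower on day 1 (log2 change -2.09 ± 0.16, limma adjusted p = 1.92e-05). Ltb, the membrane partner of lymphotoxin alpha, stood at 5.05, 4.64 and 4.80 on day 1, against 5.16 in each of the day 0 arrays. Its change of -0.33 ± 0.10 (limma adjusted p = 0.0276) missed the threshold whenever any array other than day 1 replicate 1 was left out, with adjusted p-values up to 0.0786, and with quantile normalization (adjusted p = 0.0943). Tnfsf13b, which encodes the B cell survival factor BAFF, was at 6.18, 6.16 and 6.02 on day 1, against 6.37, 6.53 and 6.33 on day 0, without overlap. The change was -0.29 ± 0.08 (limma adjusted p = 0.0163), and without day 1 replicate 3 it missed the threshold (adjusted p = 0.0562).

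The 7 other ligands had changes between -0.22 and 0.06, none past the threshold. Tnfsf12, which encodes TWEAK, was the bright one among them, with 8.70, 8.65 and 8.76 on day 1 and 8.63, 8.61 and 8.71 on day 0. The 95% interval of its change ran from -0.09 to 0.20, so a change beyond these bounds was not seen at this precision. Faslg, the Fas ligand of cytotoxic lymphocytes, was at 4.37, 4.56 and 4.47 on day 1, against 4.55, 4.90 and 4.41 on day 0 (interval -0.44 to 0.14). Tnfsf11, the osteoclast factor RANKL, was at 4.21, 4.15 and 4.0 on day 1 and spread from 3.93 to 4.58 on day 0 (interval -0.47 to 0.24). Cd40lg, the activated T cell ligand, had an interval of -0.29 to 0.09. Faslg, Tnfsf11 and Cd40lg all lay in the dimmest 25% of genes, as did Lta, Tnfsf4 and Cd70. Cd70 stood at -0.22 ± 0.10 (limma adjusted p = 0.115) and was past the threshold when day 0 replicate 2 was dropped (adjusted p = 0.0298) or the replicate number was a block (adjusted p = 0.0331).

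**Figure D2:**
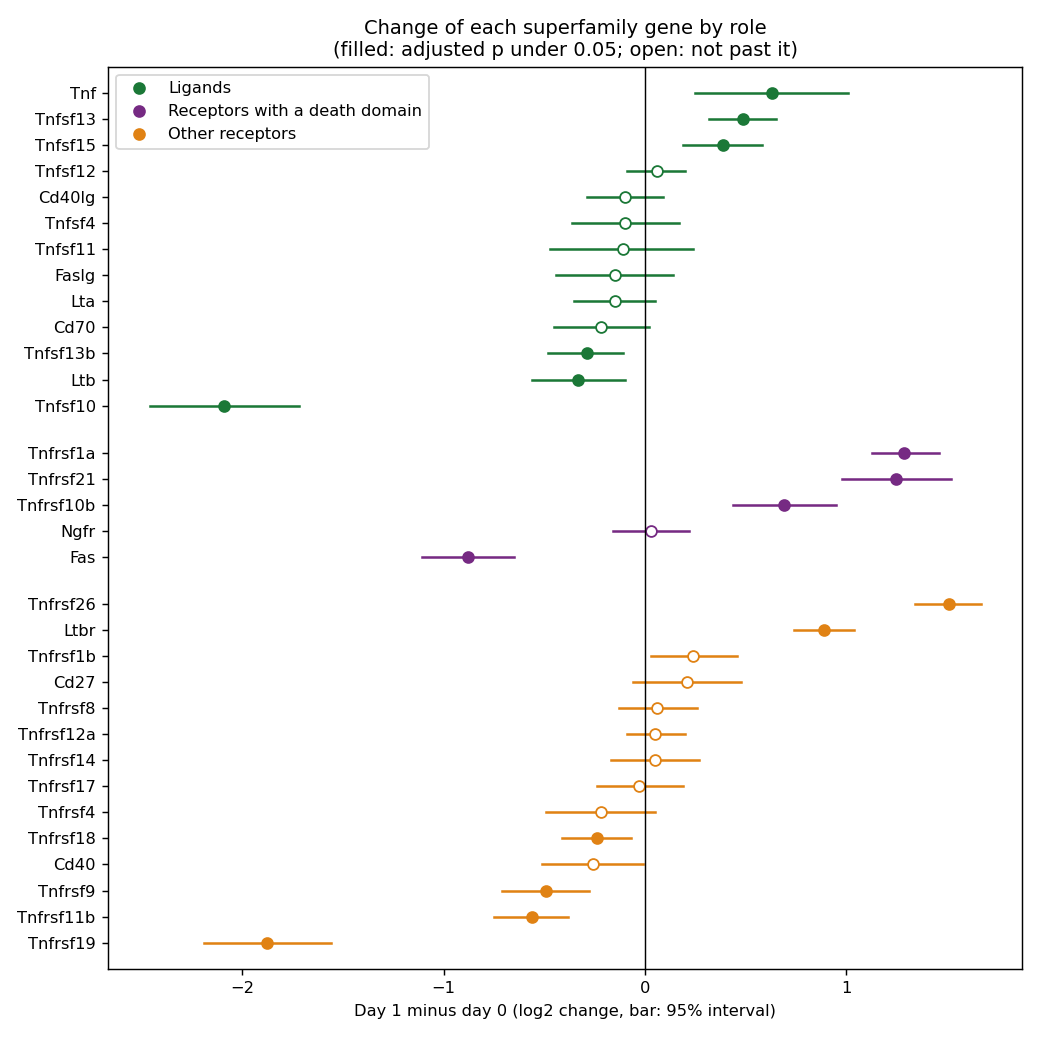
Log2 change of each superfamily gene, day 1 minus day 0 (horizontal axis, 3 arrays per group, bar = 95% interval), in 3 blocks for ligands, receptors with a death domain and other receptors; filled points passed an adjusted p of 0.05 and open points did not. Changes run from -2.09 for Tnfsf10 to 1.51 for Tnfrsf26, and 3 of the 5 death domain receptors lie to the right of 0 with filled points, beside 27.6% of all genes.

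Of the 5 receptors with a death domain, 3 rose, 1 fell and 1 did not pass the threshold, beside 27.6% and 20.7% of all genes that rose and fell. Tnfrsf1a, the broadly expressed main signalling receptor for TNF, stood at 11.10, 11.02 and 11.16 in day 1 cultures, against 9.90, 9.78 and 9.73 in day 0 rings. The replicates within a day lay close together, and the groups were far apart. The mean was 11.09 ± 0.07 on day 1 and 9.80 ± 0.09 on day 0 (SD, n = 3 each), a 2.45-fold higher level on day 1 (log2 change 1.29 ± 0.07, limma adjusted p = 3.13e-06).

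Tnfrsf21 encodes death receptor DR6, known from neurons and from endothelial cells. It had levels of 8.20, 8.07 and 8.18 on day 1, against 7.15, 6.67 and 6.89 on day 0, a 2.38-fold higher level on day 1 (log2 change 1.25 ± 0.12, limma adjusted p = 5.90e-05). The groups did not overlap, and the day 0 arrays were the more spread, with an SD of 0.24 beside 0.07 on day 1. Tnfrsf10b, a death receptor for TRAIL, stood at 7.03, 6.78 and 7.09 on day 1, against 6.10, 6.42 and 6.30 on day 0. It was 1.62-fold higher on day 1 without overlap of the arrays (log2 change 0.69 ± 0.11, limma adjusted p = 0.00114).

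Fas, the receptor of the Fas ligand, went the other way. Its levels were 7.20, 7.13 and 7.15 in day 1 cultures, against 8.19, 8.12 and 7.81 in day 0 rings, which is 1.84-fold lower on day 1 (log2 change -0.88 ± 0.10, limma adjusted p = 1.87e-04). All day 1 arrays lay below all day 0 arrays. Ngfr, the low-affinity neurotrophin receptor, stood at 5.68, 5.79 and 5.86 on day 1 and 5.86, 5.77 and 5.62 on day 0. The groups overlapped throughout, with an interval of -0.16 to 0.22 for the change.

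The 14 other receptors held 2 rises (14.3%, beside 27.6% of all genes), 4 falls (28.6%, beside 20.7%) and 8 genes not past the threshold. Tnfrsf26, which in mouse lies in a cluster with decoy receptors for TRAIL, had the largest rise of the family. It stood at 8.19, 8.11 and 8.21 on day 1, against 6.59, 6.77 and 6.63 on day 0, a 2.84-fold higher level (log2 change 1.51 ± 0.07, limma adjusted p = 1.45e-06). All day 1 arrays lay far above all day 0 arrays. Ltbr, the lymphotoxin beta receptor that feeds the alternative NF-kappaB route, stood at 9.68, 9.58 and 9.65 on day 1, against 8.81, 8.68 and 8.74 on day 0. Arrays within a day lay close together, and the log2 change was 0.89 ± 0.06 (limma adjusted p = 1.31e-05).

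Tnfrsf19, the receptor TROY, had the largest fall among receptors. Its levels were 6.56, 6.69 and 6.13 in day 1 cultures, against 8.36, 8.38 and 8.27 in day 0 rings. It was 3.67-fold lower on day 1 (log2 change -1.88 ± 0.14, limma adjusted p = 1.47e-05), without overlap, and the day 1 arrays were the more spread (SD 0.29, beside 0.06 on day 0). Tnfrsf11b encodes osteoprotegerin, a secreted decoy for RANKL that also binds TRAIL. It was bright on both days, with 10.02, 9.94 and 9.78 on day 1 and 10.55, 10.41 and 10.48 on day 0, and fell by 0.56 ± 0.08 on the log2 scale (limma adjusted p = 5.95e-04). All its day 1 arrays lay below all its day 0 arrays.

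Tnfrsf9, a costimulatory receptor of activated T cells, stood at 6.55, 6.25 and 6.41 on day 1, against 6.83, 7.02 and 6.85 on day 0, without overlap (log2 change -0.49 ± 0.09, limma adjusted p = 0.003). Tnfrsf18, the regulatory T cell receptor GITR, stood at 5.15, 5.06 and 4.93 on day 1, against 5.23, 5.36 and 5.27 on day 0. That change of -0.24 ± 0.08 (limma adjusted p = 0.0305) was the smallest past the threshold. It missed the threshold without day 1 replicate 2 or 3 or day 0 replicate 2 or 3 (adjusted p up to 0.0936), and with quantile normalization (adjusted p = 0.129), median centring (0.0695) or an intensity trend (0.0739).

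Tnfrsf1b, the TNF receptor of leukocytes and endothelium, was at 8.03, 8.10 and 8.32 on day 1, against 8.0, 7.79 and 7.93 on day 0. The arrays did not overlap, but the change of 0.24 ± 0.09 missed the threshold (limma adjusted p = 0.0627). Dropping day 1 replicate 1 took it past the threshold (adjusted p = 0.0445), as did fits with median centring (0.0346), without the dimmest 25% of genes (0.0374), and without genes under the median or with an intensity trend (0.0168 in each). The change of Tnfrsf1a was larger than that of Tnfrsf1b as an estimate, with intervals of 1.13 to 1.46 and 0.03 to 0.46 that do not meet, while the difference itself was not tested.

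Cd40, the costimulatory receptor of antigen-presenting cells, stood at 5.45, 5.02 and 5.23 on day 1, against 5.58, 5.47 and 5.44 on day 0. Its change of -0.26 ± 0.11 missed the threshold (limma adjusted p = 0.0848) and crossed it once day 1 replicate 1 was dropped (adjusted p = 0.0150). Tnfrsf12a, which encodes the TWEAK receptor Fn14, was bright on both days, at 9.56, 9.49 and 9.46 on day 1 and 9.51, 9.45 and 9.39 on day 0 (interval -0.09 to 0.20). Tnfrsf4, the OX40 receptor of T cells, stood at -0.22 ± 0.12 (limma adjusted p = 0.162), and crossed the threshold once day 0 replicate 2 was dropped (adjusted p = 0.0415). The lymphocyte receptor genes Cd27, Tnfrsf8, Tnfrsf14 and Tnfrsf17 had changes between -0.03 and 0.21, none past the threshold.

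Ligands and receptors were also set side by side, by 14 known pairings among the measured members. For TNF the ligand and Tnfrsf1a both rose (0.63 and 1.29), while Tnfrsf1b stood at 0.24 and did not pass the threshold. In the TRAIL group the ligand Tnfsf10 fell (-2.09), its death receptor gene Tnfrsf10b rose (0.69) and the soluble decoy gene Tnfrsf11b fell (-0.56). The lymphotoxin pair also parted, with Ltb at -0.33 and Ltbr at 0.89. Lta and Tnfrsf14 stood at -0.15 and 0.05, neither past the threshold. In the RANKL pairing Tnfsf11 stood at -0.11 and did not pass the threshold, while Tnfrsf11b fell (-0.56). For the Fas pair the receptor fell (-0.88), while the ligand stood at -0.15 and did not pass the threshold. The TWEAK pair stood at 0.06 for Tnfsf12 and 0.05 for Tnfrsf12a, neither past the threshold, and at -0.06 and -0.07 with quantile normalization. For APRIL and BAFF, Tnfsf13 rose (0.49) and Tnfsf13b fell (-0.29), and their receptor gene Tnfrsf17 stood at -0.03. In the T cell pairs of Tnfsf4 with Tnfrsf4, Cd40lg with Cd40 and Cd70 with Cd27, no gene passed the threshold. Whether a pair's changes differ from each other was not tested.

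**Figure D3:**
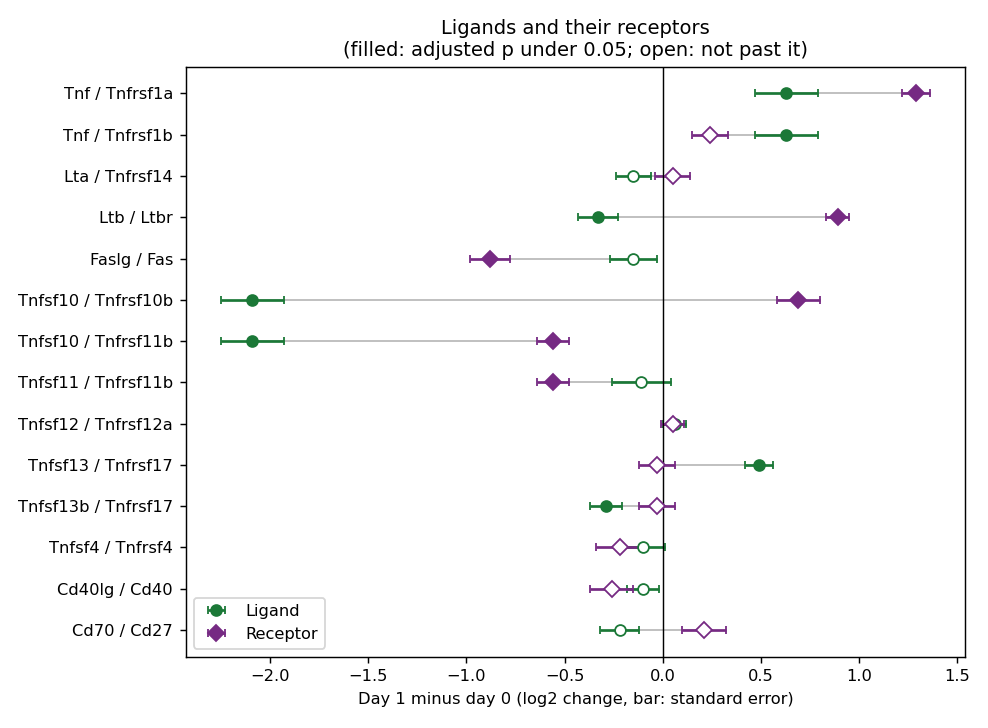
Log2 change, day 1 minus day 0 (horizontal axis, bar = standard error, 3 arrays per group), of ligands (green circles) and their receptors (purple diamonds) in 14 pairings joined by grey lines; filled points passed an adjusted p of 0.05. The widest gaps are those of Tnfsf10 at -2.09 with Tnfrsf10b at 0.69 and of Tnfsf10 with Tnfrsf11b at -0.56.

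Some members are neighbours in the genome. On assembly GRCr8 the genes Lta, Tnf and Ltb follow each other with 0 protein-coding genes between them, and of these Tnf rose, Ltb fell and Lta did not pass the threshold (-0.15 ± 0.09). Cd27, Ltbr and Tnfrsf1a lie in a row with 1 protein-coding gene in each gap. Ltbr and Tnfrsf1a rose there, and Cd27 stood at 0.21 ± 0.11 (limma adjusted p = 0.171). Tnfsf13, which rose, is next to Tnfsf12, which did not pass the threshold. Tnfrsf1b and Tnfrsf8 are adjacent with neither past the threshold. The adjacent genes Tnfrsf4 and Tnfrsf18 had like changes, -0.22 ± 0.12 and -0.24 ± 0.08. Differences between neighbours were not tested.

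Genes that act downstream of the receptors were followed as a list of adaptors, kinases, ubiquitin enzymes and caspase regulators. This list was chosen with earlier results of these data known. Of 29 measured genes of the 35 listed, 17 rose, 1 fell and 11 did not pass the threshold. Those 17 are 58.6% of the list, beside 27.6% of all genes. Most of these genes were bright, and among genes over the median level 15 of 25 signalling genes rose (60.0%), beside 44.4% of all genes at such levels. The median change of those 25 was 0.25, beside 0.13 for all genes at such levels. Signalling genes that rose numbered 12 with quantile normalization, 20 with median centring and 13 to 16 with 1 array left out. Over all genes the rises numbered 3947 in the main fit. They were 3454 with quantile normalization, 4319 with median centring and 3586 to 3722 with 1 array left out. Bid, which links caspase-8 to the mitochondrial route of apoptosis, stood at 8.32, 7.97 and 8.06 on day 1, against 6.31, 6.22 and 6.12 on day 0 (log2 change 1.90 ± 0.10, limma adjusted p = 2.65e-06). Ripk3, the kinase of necroptosis, stood at 8.0, 7.83 and 7.92 on day 1, against 5.99, 6.47 and 6.03 on day 0 (1.75 ± 0.13, limma adjusted p = 1.63e-05). In these 2 genes the day 1 arrays lay more than 1 log2 unit above the day 0 arrays.

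Other members of that list rose by less. Birc3, an inhibitor of apoptosis that is itself an NF-kappaB target, was at 0.78 ± 0.11, and the kinase gene Ripk1, which sits at the TNF receptor, at 0.64 ± 0.07. Fadd (0.57), Casp8 (0.49) and Tradd (0.25), which build death receptor complexes, also rose. The adaptor gene Traf2 rose (0.35), and Traf3, a brake on the alternative NF-kappaB route, was the gene that fell (-0.34 ± 0.10, limma adjusted p = 0.0206). Traf3 missed the threshold in 4 of the 6 fits that left out 1 array, those without day 1 replicate 1 or 2 or day 0 replicate 1 or 3 (adjusted p = 0.0513 to 0.0656). Cflar, the caspase-8 inhibitor cFLIP, stood at 8.52, 8.6 and 8.61 on day 1 and 8.61, 8.51 and 8.56 on day 0, with an interval of -0.12 to 0.16.

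A short list of genes for the shedding of ligands and receptors held 5 measured genes of 6 listed. Timp3, which inhibits the TNF-releasing protease, stood at 11.65, 11.64 and 11.61 on day 1, against 12.31, 12.31 and 12.40 on day 0, and fell by 0.71 ± 0.06 on the log2 scale (limma adjusted p = 3.05e-05). Rhbdf1 fell (-0.27 ± 0.08) and the proprotein convertase gene Furin rose (0.42 ± 0.08). Rhbdf1 missed the threshold with median centring (adjusted p = 0.0583) and without day 1 replicate 2 or 3 or day 0 replicate 1 or 3 (adjusted p = 0.0663 to 0.0726). Adam17, the TNF-releasing protease itself, stood at 0.09 ± 0.07 and did not pass the threshold (limma adjusted p = 0.301).

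Genes known to be switched on by TNF were read as a further list, which was chosen with earlier results of these data known. Its genes Tnfaip2, Tnfaip3, Tnfaip6, Tnip3 and Relb were not measured. Of 16 measured genes of 21 listed, 15 rose and 0 fell, beside 27.6% and 20.7% of all genes, and 9 of them rose at least 2-fold, with a median of 1.04. Over the median level 8 of 9 rose, beside 44.4% of all genes at such levels. At an unadjusted p under 0.05 in the limma fit the list also held 15 genes, the ones that rose, and Birc3 stands in both this list and the signalling list. The chemokine gene Ccl2 was at 11.09, 11.12 and 11.43 on day 1, against 7.68, 7.18 and 7.07 on day 0 (3.90 ± 0.16). Il6 was at 5.71, 5.65 and 7.38 on day 1, against 3.18, 3.44 and 3.24 on day 0 (2.96 ± 0.42), with day 1 replicate 3 far above the other day 1 arrays. The chemokine gene Cxcl10 (2.52 ± 0.29) and the mitochondrial superoxide dismutase gene Sod2 (2.01 ± 0.06) followed. Nfkbia, the NF-kappaB inhibitor that the pathway induces, was at 0.02 ± 0.08 and did not pass the threshold (limma adjusted p = 0.841). These genes also answer to interleukin-1 and Toll-like receptors, and which signal they follow was not tested.

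**Figure D4:**
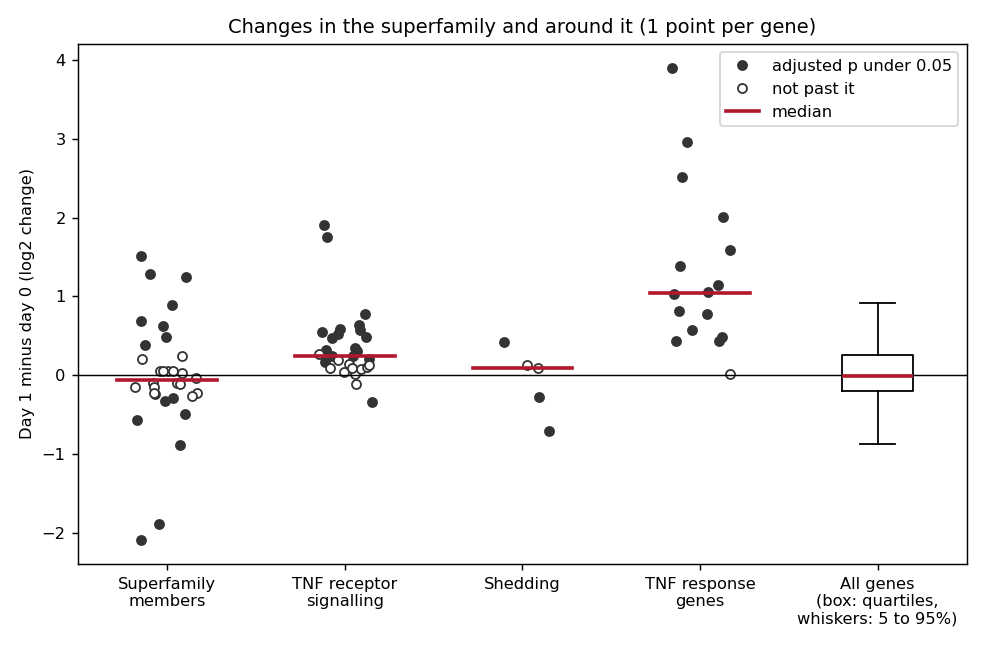
Log2 change, day 1 minus day 0 (vertical axis), with 1 point per gene for the 32 superfamily members and the lists of TNF receptor signalling, shedding and TNF response genes (filled: adjusted p under 0.05), a red line at each median, and all 14324 genes as a box of quartiles with whiskers at 5 and 95%. The members' median is -0.06 and that of the TNF response genes 1.04, beside -0.01 for all genes.

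The cell types of the wall were followed by their markers. Over all genes 27.6% rose and 20.7% fell, and among genes over the median level 44.4% rose and 22.9% fell. The 7 contractile smooth muscle genes all fell, led by Cnn1 (-5.73) and Actg2 (-4.08). Among 7 endothelial genes 5 rose (71.4%), with Egfl7 at 0.87 and Cdh5 at 0.78, and 2 fell (28.6%), Tek and Esam at -0.65 each. The rises numbered 3 with quantile normalization, and likewise without day 1 replicate 3 or without day 0 replicate 3. The list mean was 8.08 to 8.21 in day 1 cultures and 7.82 to 8.04 in day 0 rings. Of 8 fibroblast genes 3 rose and 5 fell, with Pdgfra at 1.85 and Pi16 at -1.94, and mean levels of 11.07 to 11.19 on day 1 and 11.42 to 11.51 on day 0. Of 9 macrophage genes 3 rose and 2 fell, with Cd68 at 1.70, Cd14 at 1.61 and Csf1r at -0.46, and mean levels of 8.42 to 8.60 on day 1 and 8.11 to 8.21 on day 0. With quantile normalization 4 macrophage genes fell.

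Markers of lymphocytes, which carry many of the family's genes, were mostly dim. The counts below stand beside 27.6% of all genes that rose and 20.7% that fell. Among 10 T and NK cell genes 3 fell, namely Cd2 (-0.55), Cd4 (-0.52), which rat macrophages also carry, and Gzmb (-0.23), and 6 lay in the dimmest 25%. The other 7 did not pass the threshold, among them Cd3d (-0.07), Cd3e (-0.14), Cd3g (-0.1), Lck (-0.06) and Klrb1 (0.08). As a mean the list lay at 4.74 to 4.85 on day 1 and 4.95 to 5.02 on day 0. The list mean and the 3 genes that fell moved the same way as Tnfrsf9, Tnfrsf18 and Ltb, and their part in those results was not tested. Of 4 B and plasma cell genes only Blk rose (1.11). Ms4a1 (0.14), Cd79b (-0.04) and Jchain (-0.01) did not pass the threshold. The mean of these 4 genes, Blk included, was 4.71 to 4.76 on day 1 and 4.36 to 4.55 on day 0. Among 6 dendritic cell and antigen presentation genes 3 fell, with Cd74 at -1.08 and RT1-Da at -1.01, with a list mean of 6.52 to 6.78 on day 1 and 7.17 to 7.27 on day 0. Of 7 mast cell genes 2 fell and Kit rose (1.65), with mean levels of 4.18 to 4.28 on day 1 and 4.15 to 4.28 on day 0.

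Of the remaining cell types, 5 of 6 adipocyte genes fell, led by Ucp1 (-3.13), with mean levels of 5.51 to 5.53 on day 1 and 6.52 to 6.71 on day 0. The neural cell adhesion gene Ncam1 (-1.17) was the 1 of 5 Schwann cell and neuron genes that fell, with list levels of 5.87 to 5.91 on day 1 and 6.18 to 6.26 on day 0. By limma 0 of 7 neutrophil genes passed the threshold and 1 had an unadjusted p under 0.05. Without day 1 replicate 1 the neutrophil genes that fell numbered 2, and without day 1 replicate 3 or day 0 replicate 3 they numbered 1. All 7 lay in the dimmest 25%, with mean levels of 3.96 to 4.07 on day 1 and 4.04 to 4.25 on day 0. The part of any of these cell types in the changes of the superfamily was not tested.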

How the data were processed

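The authors deposited 1 table of log2 expression values, 27342 rows by 6 arrays, from Affymetrix whole-transcript arrays labelled from 200 ng of total RNA, per the labels. No label states the scale, and log2 was taken from the values, whose maximum is 14.16. Limma is the tool listed, per the submitters' processing notes. Not given in the sources used here are background correction, normalization, summarisation and genome build. Array medians were 5.87 to 5.95, so values were used as deposited. The number of arrays limits the precision.

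Rows were named through the array annotation (15097 with 1 symbol, 323 with several, 11922 with none), updated by gene ID in 15067 rows and by accession in 6 against GRCr8 gene names. The brightest row stood for each of 14324 genes. Day 1 minus day 0 was fitted with limma 3.58.1 in R 4.3.3 (lmFit, eBayes), two-sided, adjusted by Benjamini-Hochberg over all genes. By rule, every member was accounted for, with the value of every array where a member passed the threshold and its absolute change was at least 0.5, and of each list up to 4 genes past the threshold with the largest changes and the largest against the majority were named. Array values of other members, and Fadd, Casp8, Tradd, Traf2, Cflar, Adam17, Nfkbia, Cd3d, Cd3e, Cd3g, Lck and Klrb1, were chosen after their values were seen. So were Ms4a1, Cd79b and Jchain. Members, lists and the rules for naming were chosen with earlier results of these data known. The fit was checked on simulated data with 200 of 14324 genes changed. It recovered 64.2% of changes of 0.5, 92.5% of 1 and 98.5% of 2 log2 units, with 1 of 171 calls on an unchanged gene. In the real data 48.3% of all genes passed, so the cutoff differs and these rates do not carry over. Python 3.11.15, pandas 2.3.3, numpy 2.4.6 and matplotlib 3.10.9 made tables and figures. Alternatives covered normalization, filters on dim genes, the row that stands for a gene, all rows as features, the variance model, array weights, a replicate block and leaving out single arrays.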

Additional observations from a re-analysis of the deposited data

How the results depend on the processing

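Under 16 alternatives, 13 of the 16 members past the threshold kept their direction and call wherever the alternative kept them; the exceptions were Ltb, Tnfrsf18 and Tnfsf13b, which kept their direction. Of the 16 members not past it, 12 never passed. Without genes under the median level, 11 members remained, of which 9 passed and 3 fell, 8 TNF response genes rose and 1844 of all genes fell, since fewer genes were tested. With 1 array left out, between 5 (without day 1 replicate 3) and 9 members fell, and signalling genes that fell numbered 0 to 1, shedding genes 1 to 2 and neutrophil genes 0 to 2. With quantile normalization 2 signalling genes fell, and with median centring 1 shedding gene fell. The median change of the members was -0.02 with quantile normalization, -0.01 with median centring, 0.05 without the dimmest 25% of genes, 0.24 without genes under the median, and -0.06 to 0.01 with 1 array left out. Signs turned only in members not past the threshold: Tnfrsf12a (-0.07), Tnfsf12 (-0.06) and Tnfrsf17 (0.08) with quantile normalization, Tnfrsf17 (0.02) with median centring, and, over the fits with 1 array left out, Ngfr (-0.04 to 0.08), Tnfrsf14 (-0.02 to 0.14), Tnfrsf17 (-0.10 to 0.07), Tnfsf11 (-0.27 to 0.06) and Tnfsf4 (-0.21 to 0.01). Where the construction of an alternative does not show it, the cause was not tested. With the replicate number as a block 17 members passed, with Cd70 added and no call lost. Deviations of same-numbered arrays correlated at 0.01 to 0.04, beside -0.05 to 0.04 for arrays of unlike number. These values did not show a pairing by number, but with so few arrays they cannot tell whether pools shared animals. Higher calls were 57.1% of calls over all genes, 52.9% with quantile normalization and 63.7% with median centring. Dim rows, as most ligands are, limit what could be seen.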
